A study of Homo sapiens with 6 samples.

Results

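The 9 genes described here encode enzymes that make serine and pass its carbon to folate: PHGDH, PSAT1, PSPH, SHMT1, SHMT2, MTHFD1, MTHFD2, MTHFD1L and ALDH1L2. They were taken by gene name from a table of 58395 genes. The RNA came from 786-O, an established human line derived from a clear cell renal carcinoma. Of its libraries 3 were from cells with a control guide (sgControl) and 3 from cells whose PLOD2, the lysyl hydroxylase 2 gene, had been ablated by CRISPR/Cas9 (sgPLOD2). The labels give both groups the same serum-containing medium and no other treatment. The labels do not say whether the sgPLOD2 cells were 1 clone or a pool, nor that replicates were grown separately, and p-values therefore reflect only how far these libraries spread. By its title the study belongs to work on inducing differentiation in sarcomatoid renal cancer.

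Cells make serine from 3-phosphoglycerate, an intermediate of glycolysis, through PHGDH, PSAT1 and PSPH in turn. The serine hydroxymethyltransferases SHMT1 (cytosol) and SHMT2 (mitochondria) move a carbon from serine to folate and release glycine. In mitochondria MTHFD2 oxidises the loaded folate, MTHFD1L releases the carbon as formate and ALDH1L2 can oxidise it to carbon dioxide while making NADPH. MTHFD1 carries out the matching cytosolic steps and reloads folate with formate for purine and thymidylate synthesis. ATF4, a transcription factor of the integrated stress response, is known to act on several of these genes.

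Levels are given as deposited, in FPKM (fragments mapped to a gene, scaled by its length and by the library's size), which can be compared between genes because it is per length. Differences are sgPLOD2 minus sgControl on log2(FPKM + 1), tested with limma over the 10469 genes that averaged 1 FPKM or more. A gene was called at a Benjamini-Hochberg adjusted p under 0.05. Libraries held 229485 to 268612 FPKM in total, and relative size factors recovered from the authors' deposited table were 0.927 to 1.09. PLOD2 itself fell, from 24.7 ± 2.80 FPKM to 7.57 ± 2.21 FPKM (SD over 3 libraries; limma log2 difference -1.61, adjusted p = 0.000509). HIF1A, the hypoxia-inducible factor subunit gene whose protein 786-O cells are known to lack, had 0.311 to 0.539 FPKM in sgControl libraries but 35.6 to 39.1 FPKM in sgPLOD2 libraries. Whether both groups hold the same cell population was not tested. Mitochondrially encoded genes took 12.9% of FPKM in sgControl replicate 1 and 6.01% to 7.5% elsewhere. PAX8, a renal factor, had 22.6 to 36.3 FPKM over all libraries and KRT8 80.2 to 128 FPKM. Other markers moved between the groups, in both directions. Of 3 renal carcinoma markers, CA12 had 30.1 to 34.8 FPKM in sgControl and 8.8 to 11 FPKM in sgPLOD2 (limma adjusted p = 4.8e-05). NNMT had 56.3 to 64.3 and 70.4 to 81.4 FPKM (limma adjusted p = 0.019), and CA9 0 and 0.285 to 0.368 FPKM. Summed, these carcinoma markers had 87.0 to 94.4 FPKM in sgControl and 81.7 to 90.9 FPKM in sgPLOD2. The renal genes PAX2 and CDH16 were lower and the epithelial gene EPCAM higher in every sgPLOD2 library. Of 3 fibroblast markers, COL1A1 went from at most 0.565 to at least 2.82 FPKM (adjusted p = 2.95e-05) and PDGFRB from at most 0.0392 to at least 0.156 FPKM, while COL3A1 stayed at or under 0.00432 FPKM. Their summed level was 0.449 to 0.609 FPKM in sgControl and 2.98 to 3.36 FPKM in sgPLOD2. COL1A1 was among the tested genes only through its sgPLOD2 libraries. Of the leukocyte and endothelial genes, PTPRC, PECAM1 and CDH5 were at most 0.00628 FPKM. The leukocyte gene CD14 had 0.0992 to 0.157 FPKM in sgControl and 0.129 to 0.238 FPKM in sgPLOD2. LRP2 of the proximal tubule was at most 0.00177 FPKM. What part these shifts have in the results was not tested. In such bulk RNA, fewer cells with a transcript and less transcript per cell cannot be told apart.

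Cytosolic MTHFD1 rose, mitochondrial SHMT2 fell, and ALDH1L2 went from a trace to a low level, while PHGDH was almost absent from every library. Of the 9 genes 7 reached the mean of 1 FPKM. MTHFD1 and PSPH were called higher and SHMT2 lower, so 3 of 7 were called, against 52.9% of all tested genes (29.5% higher and 23.5% lower). The share of the family called was thus no larger than that of all genes. The groups did not overlap for 5 of the 7, against 62.7% of tested genes. The authors' deposited table gives an adjusted p under 0.05 to 4 of the 9 (MTHFD1 and ALDH1L2 higher, PSAT1 and SHMT2 lower), against 35.5% of the genes it tested. The median log2 fold change of the 7 was 0.10, against 0.06 for all tested genes.

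**Figure D1:**
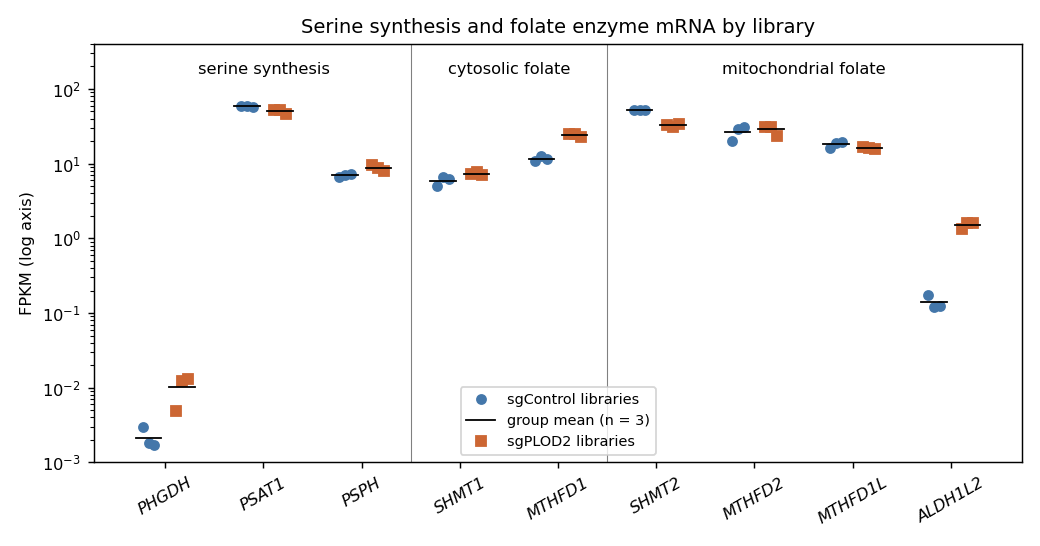
FPKM (log axis) of the 9 genes in each of the 3 sgControl libraries (circles) and 3 sgPLOD2 libraries (squares), with lines at the group means. PHGDH sits at or below 0.013 FPKM in all libraries beside PSAT1 at 46.2 to 59.6 FPKM, and ALDH1L2 and MTHFD1 show the widest gaps upward among genes above 0.1 FPKM.

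PHGDH, the first and committed enzyme of serine synthesis, had 0.00295, 0.00182 and 0.00169 FPKM in the sgControl libraries against 0.00493, 0.0124 and 0.013 FPKM in the sgPLOD2 libraries. It ranked 24788 of 58395 genes in sgControl and 23128 in sgPLOD2, far below its pathway partners. The authors' deposited table gives PHGDH (ENSG00000092621, build GRCh38, chromosome 1, 119648411 to 119744218, plus strand) a mean normalized count of 8.10 per library, against 16200 for PSAT1. That table lists a log2 fold change of 1.91 with a standard error of 1.08 and an adjusted p of 0.167. All 3 sgPLOD2 libraries lay above all 3 sgControl libraries, but at so few reads the difference did not pass either test (limma with no filter on low values, adjusted p = 0.328).

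PSAT1, the aminotransferase of the second step, was the most abundant of the 9 in both groups. It had 59.6, 58.8 and 57.0 FPKM in the sgControl libraries against 52.3, 51.5 and 46.2 FPKM in the sgPLOD2 libraries, at the 93.0 and 92.5 percentiles of tested genes. All sgPLOD2 libraries lay below all sgControl libraries, yet by little. The log2 fold change was -0.22 ± 0.08 (SE; 95% interval -0.41 to -0.033; limma adjusted p = 0.0515). Median-of-ratios scaling (adjusted p = 0.0186) and removal of a trend with GC content and transcript length (-0.41, adjusted p = 0.00599) brought it past the threshold, and TPM scaling, which evens out library totals, took it to -0.10 (adjusted p = 0.365).

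PSPH, the phosphatase of the last step, had 6.65, 7.11 and 7.18 FPKM in the sgControl libraries against 9.71, 8.65 and 7.89 FPKM in the sgPLOD2 libraries. The groups did not overlap, and the lowest sgPLOD2 library was 1.1 times the highest sgControl library. The log2 fold change was 0.29 ± 0.10 (SE; limma adjusted p = 0.0419). The call was lost when any 1 library other than sgPLOD2 replicate 3 was left out (adjusted p 0.0716 to 0.144) and when the replicate number was used as a block (0.0769). It was also lost with no filter (0.0623), median-of-ratios scaling (0.0788) and quantile normalization (0.0719). The same held under TPM with chromosome medians removed (0.0564) and with the regional median removed (0.239).

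Both cytosolic folate enzymes were higher in every sgPLOD2 library, MTHFD1 by far the more. MTHFD1 (ENSG00000100714, chromosome 14, 64388031 to 64463457, plus strand), a single protein with several folate activities, had 10.9, 12.5 and 11.6 FPKM in the sgControl libraries against 24.6, 24.7 and 23.0 FPKM in the sgPLOD2 libraries. Its mean rose 2.06-fold, from 11.7 ± 0.80 FPKM to 24.1 ± 0.95 FPKM (SD over 3 libraries), and it moved from rank 3238 to rank 1695 of all genes. The log2 fold change was 0.99 ± 0.08 (SE; limma adjusted p = 0.000151), larger than that of 94.5% of tested genes. SHMT1 had 5.0, 6.55 and 6.21 FPKM in the sgControl libraries against 7.28, 7.72 and 6.95 FPKM in the sgPLOD2 libraries. Its difference of 0.27 ± 0.11 (SE; 95% interval 0.0105 to 0.531) did not pass the threshold (limma adjusted p = 0.0750), though it did under TPM (0.0446) and once the GC and length trend was taken out (0.0466), and it was 0.12 (0.405) with chromosome medians removed. SHMT1 overlaps SMCR8 on the opposite strand (1.84 to 6.26 FPKM), and the strand setting of the counting is not given in the sources used here, so reads of this pair may have been shared.

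In mitochondria SHMT2 fell, ALDH1L2 was higher, and the other 2 enzymes showed no resolved difference. SHMT2 (ENSG00000182199, chromosome 12, 57229573 to 57234935, plus strand) had 51.9, 52.2 and 53.0 FPKM in the sgControl libraries against 33.4, 30.8 and 34.4 FPKM in the sgPLOD2 libraries. Its mean fell from 52.4 ± 0.55 FPKM to 32.9 ± 1.85 FPKM, or 62.8% of the control level (SD over 3 libraries; log2 fold change -0.66 ± 0.08 SE, limma adjusted p = 0.000565). The call held under all alternatives run, with log2 fold changes of -0.72 to -0.39. The fall was larger than that of all but 10.3% of tested genes.

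ALDH1L2 (ENSG00000136010, chromosome 12, 105019784 to 105107643, minus strand) had 0.177, 0.12 and 0.124 FPKM in the sgControl libraries against 1.32, 1.59 and 1.6 FPKM in the sgPLOD2 libraries. The lowest sgPLOD2 library was 7.5 times the highest sgControl library, and the means of 0.140 ± 0.032 and 1.504 ± 0.156 FPKM (SD, n = 3 each) were 10.7-fold apart. Groups that do not overlap were found for 38.8% of all genes above 0 in any library. Its mean over the 6 libraries was 0.822 FPKM, so it was not among the tested genes. Its 2-sided exact permutation p was 0.1, the lowest that 3 libraries against 3 allow. With no filter on low values, ALDH1L2 passed (log2 fold change 1.13, limma adjusted p = 0.000626; 24.3% of genes were called in that fit). The authors' deposited table gives it a log2 fold change of 3.32 with a standard error of 0.214 and an adjusted p of 3.99e-52. Even so, ALDH1L2 in sgPLOD2 stayed at the 9.73 percentile of tested genes, the lowest of the 4 mitochondrial enzymes.

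MTHFD2, the mitochondrial dehydrogenase, had 20.4, 29 and 31.4 FPKM in the sgControl libraries against 31.1, 31.4 and 23.5 FPKM in the sgPLOD2 libraries. The groups overlapped, and sgControl replicate 1, the library with the high mitochondrial share, was the lowest of all. The log2 fold change of 0.10 ± 0.18 (SE) had a 95% interval of -0.34 to 0.53 (limma adjusted p = 0.681), so a moderate change in either direction was not resolved. Without sgControl replicate 1 it was -0.085 (adjusted p = 0.628). MTHFD1L, which releases formate, had 16.1, 19.0 and 19.3 FPKM in the sgControl libraries against 16.8, 16.2 and 15.7 FPKM in the sgPLOD2 libraries. Its log2 fold change was -0.15 ± 0.10 (SE; 95% interval -0.37 to 0.074; limma adjusted p = 0.222), and without sgControl replicate 1 it was called lower (-0.23, adjusted p = 0.0385).

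The order of levels changed in the middle of the family. In sgControl it ran from PSAT1 and SHMT2 through MTHFD2, MTHFD1L and MTHFD1 to PSPH and SHMT1, with ALDH1L2 and PHGDH far behind. No 2 neighbours in that order overlapped over the 3 libraries, the narrowest gap being between PSPH (lowest 6.65 FPKM) and SHMT1 (highest 6.55 FPKM). In sgPLOD2, MTHFD1 passed MTHFD1L, and MTHFD2, from 23.5 to 31.4 FPKM, overlapped both SHMT2 above it (30.8 to 34.4 FPKM) and MTHFD1 below it (23.0 to 24.7 FPKM). SHMT2 was the least variable of the 9 in sgControl, with a coefficient of variation of 1.04%, whereas that of MTHFD2 was 21.5%.

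The balance of mitochondrial to cytosolic enzyme mRNA was lower in sgPLOD2 at both paired steps. The ratio of SHMT2 to SHMT1 was 10.4, 7.98 and 8.53 in sgControl and 4.59, 3.997 and 4.96 in sgPLOD2. The ratio of MTHFD2 to MTHFD1 was 1.87, 2.33 and 2.70 in sgControl and 1.26, 1.27 and 1.02 in sgPLOD2. Neither ratio overlapped between the groups, and their log2 differences were -0.99 and -0.95. Groups did not overlap for 62.7% of single tested genes, and the share for ratios of other gene pairs was not worked out. Ratios within a library do not depend on its scaling. For either ratio, the 2-sided exact permutation p was 0.1 (0.1 when adjusted over both ratios), the lowest possible with 3 against 3. The differences were -0.76 and -0.56 with chromosome medians removed, and -0.61 and -0.34 with the median of each gene's neighbours removed, steps taken up with the neighbours of MTHFD1. SHMT1 and MTHFD1 together made up 15.3 ± 0.63% of the summed FPKM of the 6 folate enzymes in sgControl and 28.4 ± 0.50% in sgPLOD2 (SD, n = 3 each), a sum formed after the values had been seen. The first ratio moved mainly through SHMT2 and the second mainly through MTHFD1.

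**Figure D2:**
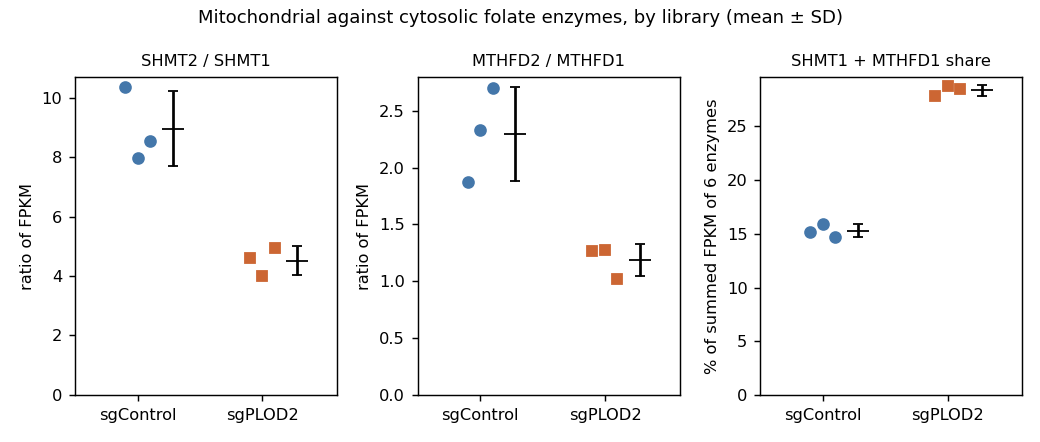
Ratios of FPKM of the mitochondrial to the cytosolic enzyme at both paired steps, and the share of SHMT1 and MTHFD1 in the summed FPKM of the 6 folate enzymes, for each library (points) with mean ± SD (n = 3). All sgPLOD2 ratios lie below all sgControl ratios, and the cytosolic share goes from 14.7% to 15.9% up to 27.8% to 28.8%.

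Genes around several members had shifted as well. MTHFD1 lies 2.64 Mb from HIF1A, whose log2 fold change was 4.77. Of the 38 other tested genes within 5 Mb of MTHFD1, 31 were called higher and 2 lower, against 29.5% and 23.5% of all tested genes. Their median log2 fold change was 0.74, and the median over all 344 tested genes of chromosome 14 was 0.54. MTHFD1 exceeded 30 of those 38 neighbours. With the chromosome median removed its log2 fold change was 0.45 (limma adjusted p = 0.00493), and with the median of its neighbours removed 0.25 (adjusted p = 0.0519). Wherever such a median was removed, it was taken as a fixed value. The p-values then cover the spread of libraries and not that of the other genes. What part of the rise of MTHFD1 belongs to this regional shift was not tested.

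MTHFD1L showed the reverse arrangement. Of 28 tested neighbours within 5 Mb on chromosome 6, 17 were called higher and 2 lower (median 0.53), while MTHFD1L itself was at -0.15 and below 25 of them. With their median removed it was at -0.68 (limma adjusted p = 0.00161). The neighbours themselves spread widely, with quartiles of 0.0575 and 0.783, and 3 of them lay below MTHFD1L. Whether MTHFD1L differs from its neighbours beyond that spread was not tested. ALDH1L2 and SHMT2 are both on chromosome 12. ALDH1L2, at 1.13, lay above each of its 49 tested neighbours, of which 8 were called higher and 12 lower (median -0.10). Of the 98 tested neighbours of SHMT2, 11 were called higher and 33 lower (median -0.27). SHMT2 lay below 82 of them and was at -0.39 with their median removed (adjusted p = 0.00663). PSPH, with 10 tested neighbours at a median of 0.44, went to -0.15 on removal of that median (adjusted p = 0.239).

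**Figure D3:**
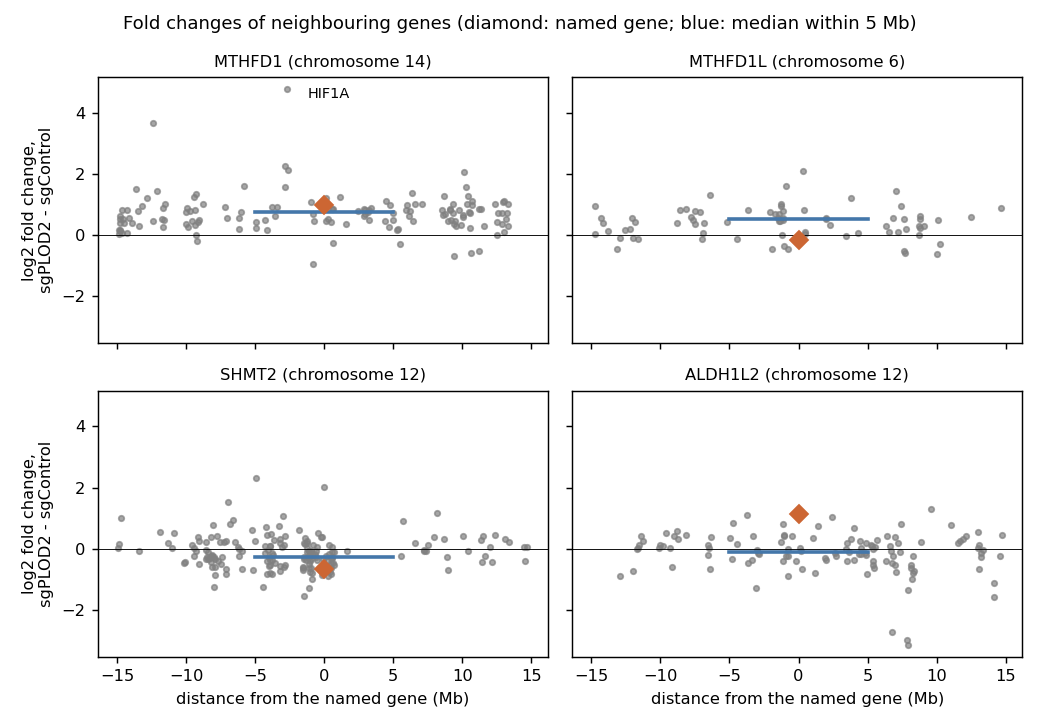
Log2 fold change of every tested gene within 15 Mb of MTHFD1, MTHFD1L, SHMT2 and ALDH1L2 against its distance in Mb; the diamond is the named gene (ALDH1L2 itself was below the filter) and the blue line the median of its neighbours within 5 Mb. Neighbours of MTHFD1 sit mostly above 0 with a median of 0.74, and ALDH1L2 at 1.13 stands above all of its neighbours within 5 Mb.

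**Figure D4:**
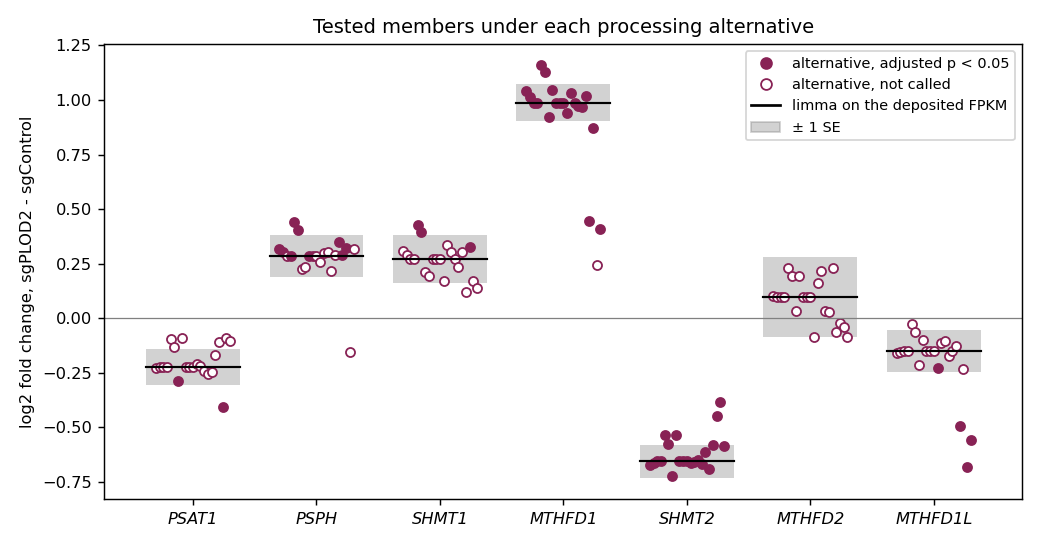
Log2 fold changes of the 7 tested genes from limma on the deposited FPKM values (black line, grey band ± 1 SE) and under each processing alternative (points, filled where the limma adjusted p was under 0.05). SHMT2 is filled throughout, MTHFD1 is open only with the median of its neighbours removed, and PSPH changes sign there.

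Promoter sequence was looked at for features that the choice of genes did not use. RefSeq promoter windows (build GRCh38.p14, 300 bases that end 50 bases after each start) were found for 6 of the 9 genes, MTHFD1L with 4 starts. The CCAAT box, on either strand, was present in a window of 6 of 6 genes and in 8 of their 9 windows, against 34.6% of all 35116 windows and 34.9% of those of tested genes. The MTHFD1L windows that hold the box overlap and share the same site, so this site is counted more than once. The percentages are per window, so the count of genes has no matching share. The box was searched for after the letters had been seen. The nearly absent PHGDH and the abundant PSAT1 both hold it, as the following 30-base stretches show (5′ to 3′ on the gene's strand, the box in capitals; ATTGG is its reverse complement).
PHGDH (chr1:119711851-119711880, plus strand): gagtatttccgtCCAATcaaaaggagactg
PSAT1 (chr9:78297061-78297090, plus strand): cgacagcacgggCCAATggggcgccgactc
SHMT1 (chr17:18363558-18363587, minus strand): ctgcgctctctgATTGGgcgcctccggggg
MTHFD1 (chr14:64388125-64388154, plus strand): tctttctttccgCCAATcatttccgccagc
MTHFD2 (chr2:74198529-74198558, plus strand): atgcggcagggaCCAATgggtggcggaggg
MTHFD1L (chr6:150866281-150866310, plus strand): gcgtgggcatctCCAATgggcgcctagcgg

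PHGDH and PSAT1 differed in CpG dinucleotides, with 15 and 37 in 300 bases against a median of 14 over all windows. The core of the composite element bound by ATF4 with C/EBP proteins, TGATGNAA on either strand, was found in MTHFD1L alone of the 6 genes, in 3 overlapping windows that share 1 site, in 3.62% of all windows and in 1.9% of those of tested genes. The E-box CACGTG was found in MTHFD1 and MTHFD1L, in 7.26% of all windows and in 9.64% of those of tested genes. Both matches are printed here because they are the motifs of ATF4 and MYC.
MTHFD1L, composite element (chr6:150866346-150866375, plus strand): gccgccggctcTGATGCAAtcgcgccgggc
MTHFD1, E-box (chr14:64388326-64388355, plus strand): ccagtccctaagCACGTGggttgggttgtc

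Of 3 transcription factors known to act on serine synthesis genes, 1 fell and 2 were not called. ATF4 fell from 219 ± 13 FPKM to 101 ± 7.74 FPKM (SD over 3 libraries; limma log2 difference -1.11, adjusted p = 0.000124). MYC varied widely within both groups, from 0.742 to 9.98 FPKM in sgControl and from 1.01 to 24.4 FPKM in sgPLOD2, and NFE2L2 had means of 7.14 and 8.26 FPKM. Beside the fall of ATF4, the log2 fold changes were -0.66 for SHMT2, -0.22 for PSAT1 and -0.15 for MTHFD1L. They were 0.01 for PHGDH, 0.10 for MTHFD2, 0.27 for SHMT1, 0.29 for PSPH, 0.99 for MTHFD1 and 1.13 for ALDH1L2. A link of any of these to ATF4 was not tested.

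Among 17 other folate enzymes and carriers, 11 were tested, of which 2 were called higher and 2 lower (median 0.18), against 29.5% higher and 23.5% lower over all tested genes. FOLR1, the folate receptor alpha gene, fell from 4.14 ± 0.34 to 0.870 ± 0.137 FPKM (SD, n = 3 each; limma adjusted p = 4.76e-05). It passed the filter on low values only through its sgControl libraries. FPGS, which adds the glutamate tail that keeps folate in cells, fell from 43.9 ± 3.29 to 22.8 ± 1.81 FPKM (limma adjusted p = 0.000345). The log2 fold change of FPGS went from -0.92 to -0.50 once the GC and length trend was taken out (adjusted p = 0.00508). Methionine synthase, MTR, rose from 2.03 ± 0.72 FPKM to 4.24 ± 0.62 FPKM (limma adjusted p = 0.010, log2 difference 0.81), or 0.40 (adjusted p = 0.122) with the GC and length trend removed. Thymidylate synthase, TYMS, had 76.5 ± 6.52 and 95.2 ± 7.74 FPKM (adjusted p = 0.0345). That call was lost without sgControl replicate 2 or without sgPLOD2 replicate 1 or 2 (0.0959 to 0.108), under the replicate block (0.0652), with no filter (0.0680) and with median-of-ratios scaling (0.0757). It was also lost with chromosome medians removed (0.445, or 0.624 under TPM), and the sign turned with the regional median removed (-0.062).

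Of 17 genes of serine and glycine transport, breakdown and use, 13 were tested, 4 rose and 6 fell (median -0.12), beside the 29.5% and 23.5% of all tested genes. They include the sideroflexins, carriers of the inner mitochondrial membrane. SFXN2 fell from 2.38 ± 0.34 to 1.06 ± 0.072 FPKM and SFXN3 from 15 ± 0.55 to 10.1 ± 0.28 FPKM (SD, n = 3 each; limma adjusted p = 0.00119 and 0.00136). SFXN1, known as a serine carrier and added after its values were seen, rose from 8.09 ± 0.25 to 11.3 ± 1.32 FPKM (limma adjusted p = 0.0101). SARDH, the mitochondrial sarcosine dehydrogenase, rose from 0.142 ± 0.035 to 2.02 ± 0.053 FPKM, and passed the filter on low values only through its sgPLOD2 libraries. The serine racemase gene SRR rose from 3.13 ± 0.36 to 5.67 ± 0.57 FPKM (log2 fold change 0.69, or 0.445 with the regional median removed). In the glycine cleavage system, 2 of 4 genes were tested and limma called 0, also at an unadjusted p under 0.05, and GLDC and AMT stayed at means of at most 0.061 FPKM in either group.

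Of 12 genes of the methionine cycle and transsulfuration, 9 were tested, 3 rose and 1 fell (median 0.22), a smaller share called than the 52.9% of all tested genes. MAT2A, which makes S-adenosylmethionine, rose from 27.0 ± 2.18 to 57.1 ± 1.56 FPKM and CBS, the first enzyme of transsulfuration, from 1.69 ± 0.062 to 2.91 ± 0.23 FPKM (SD, n = 3 each; limma adjusted p = 0.000121 and 0.00199). BHMT2 fell from 3.83 ± 0.75 to 1.01 ± 0.10 FPKM. AHCYL2 had 0.997 ± 0.409 and 1.66 ± 0.21 FPKM (adjusted p = 0.0451), a call lost without any 1 library other than sgControl replicate 2 (0.0716 to 0.138) and under the replicate block (0.0651).

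Of 13 de novo purine synthesis genes, whose pathway takes up folate-bound carbon, 12 were tested, 4 rose and 1 fell (median 0.19), again a smaller share than 52.9%. IMPDH2 rose from 79.8 ± 5.52 to 129 ± 4.55 FPKM and PFAS from 11.1 ± 0.62 to 19.4 ± 2.38 FPKM, whereas the isoenzyme IMPDH1 fell from 90.4 ± 8.62 to 61.4 ± 3.33 FPKM (SD, n = 3 each; limma adjusted p = 0.000645, 0.00131 and 0.00309). The log2 fold change of IMPDH2 went from 0.69 to 0.36 with chromosome medians removed (adjusted p = 0.0112) and to 0.33 with the regional median removed (0.0168). The IMPDH1 call was lost with the GC and length trend removed (adjusted p = 0.0540). PPAT, the committed step, had 4.8 ± 0.56 and 6.66 ± 0.49 FPKM (adjusted p = 0.0157), a call lost without sgControl replicate 3 or sgPLOD2 replicate 2 or 3 (0.0501 to 0.0624). It was also lost with chromosome medians removed (0.157, or 0.225 under TPM), with the regional median removed (0.0886) and once the GC and length trend was taken out (0.0831). PGK1 and PGAM1, which make and use 3-phosphoglycerate, were not called (limma adjusted p = 0.134 and 0.123, 0 of 2 at an unadjusted p under 0.05).

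**Figure D5:**
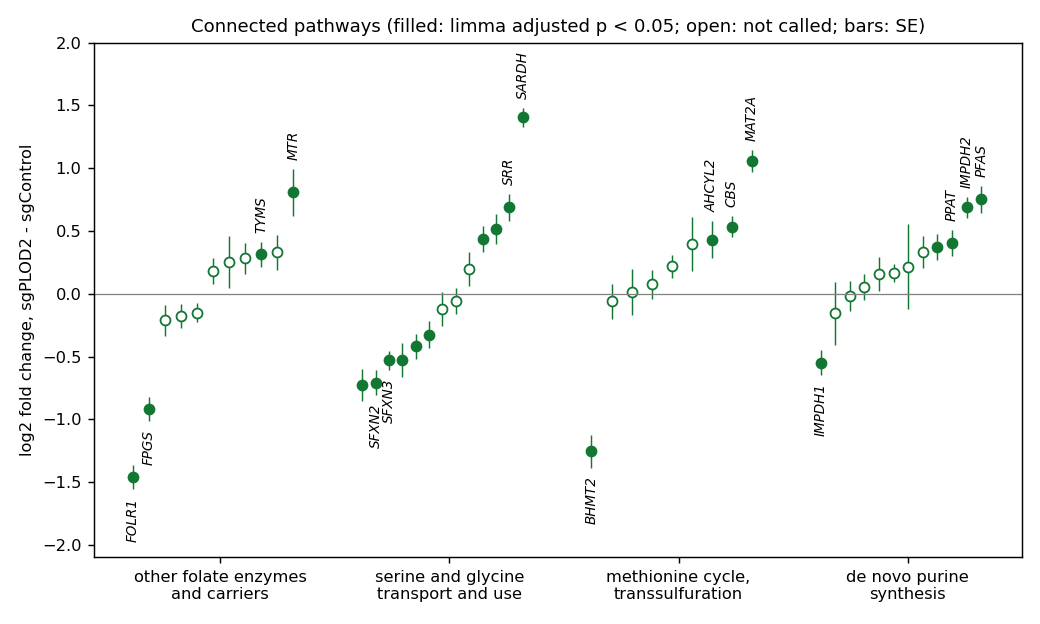
Log2 fold changes (± SE) of the tested genes of 4 connected pathways, sorted within each; filled points had a limma adjusted p under 0.05, and up to 4 of them per pathway are named. Each of the 4 pathways holds called genes in both directions, from FOLR1 at -1.46 to SARDH at 1.40.

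Across the 6 libraries the tested genes whose log2 values ran closest to MTHFD1 were CAP2, PTPRM and MAT2A (Pearson r 0.999 or more), and those closest to SHMT2 were PGAP6, TRPC4AP and FBXL15 (r 0.999). These values describe mainly the 2 groups of libraries, since 1368 genes had an r over 0.95 with MTHFD1 and 1157 with SHMT2. Among the members, MTHFD1 and SHMT2 had the most opposed profiles (r = -0.988 over 6 libraries).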

How the data were processed

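RNA from 6 libraries of 786-O cells was analysed, 3 sgControl and 3 sgPLOD2. The submitters' processing notes list CASAVA, HISAT2 2.1.0, StringTie 1.3.4 and GRCh38 but not what each did. Which tool counted, on which strand and with which annotation is not given in the sources used here. Per the file headers, the authors deposited FPKM values per gene and library, and columns of their own comparison: a mean normalized count (a signal averaged over libraries), a log2 fold change, its standard error and a test score, and p-values. Values of that comparison are named as the authors' wherever printed.

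From the FPKM values, limma 3.58.1 (R 4.3.3; eBayes with an intensity trend, 2-sided) was run on log2(FPKM + 1), and ratios were compared by an exact permutation test. Genes detected in a single library gave whole multiples of a step in the deposited mean normalized counts (100% within 0.01), hence the relative size factors; the largest was 1.18 times the smallest. Absolute depth is unknown, so no counting interval is given. Gene positions are those of the deposited table, and chromosomes and strands come from GENCODE 29, which held 58275 of the 58395 identifiers. Its starts were equal for 49009.

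The members, gene lists and tests were chosen with earlier results of these data known. The genes named were the 9 members, PLOD2, ATF4, up to 4 called genes per list with the smallest adjusted p, and the 3 genes closest to each of the 2 members with the largest tested change; any other was named after its values were seen. The limma fit in its main setting was tested on simulated data first, but the alternatives and the ratio test were not. Alternatives were other pseudocounts (0.1 and 0.5), filters, scalings and variance models, a replicate block, leaving out each library, and removal of chromosome medians or of a GC and length trend (mgcv 1.9.3). Removal of regional medians (5 Mb), and TPM with chromosome medians removed, were chosen after seeing the data.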

Additional observations from a re-analysis of the deposited data

How the results depend on the processing

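The rise of MTHFD1 and fall of SHMT2 were called under every alternative but 1, removal of the median of neighbouring genes, which took MTHFD1 to an adjusted p of 0.0519, and the calls of PLOD2 and ATF4 held throughout. In all, 145 of 179 values of the members' fold changes under alternatives counted as unchanged. For the 7 tested genes this meant the same direction and side of the threshold. For PHGDH and ALDH1L2, which were not tested, it meant a shift smaller than the SD within groups. Of the remaining values, 6 changed direction, 9 gained a call, 11 lost a call and 8, of the untested genes, shifted by that SD or more. The sign of MTHFD2, never called, turned without sgControl replicate 1 (single libraries left out gave -0.085 to 0.229), with chromosome medians (-0.062), the GC and length trend (-0.022) or the regional median (-0.038) removed, and under TPM with chromosome medians removed (-0.088). The members called higher, 2 with limma on the deposited FPKM, were 3 under TPM (also without mitochondrial and ribosomal protein genes) and once the GC and length trend was removed. They were 1 with median-of-ratios scaling, quantile normalization, the replicate block, and TPM with chromosome medians removed, and 0 with the regional median removed. Those called lower, 1 on the deposited FPKM, were 2 with median-of-ratios scaling and with chromosome medians, the GC and length trend, the regional median, or TPM with chromosome medians removed. With no filter the 2 called higher were MTHFD1 and ALDH1L2, since PSPH was lost (adjusted p = 0.0623). Leaving out single libraries gave 1 to 2 members higher and 1 to 2 lower. With a minimum of 5 FPKM fewer genes were tested. Of these, 1361 were called higher and 1649 lower, against 3084 and 2456 with a minimum of 1 FPKM, so the majority of calls turned from higher to lower. TPM moved the median log2 fold change of all tested genes from 0.06 to 0.20 and the share of calls that were higher from 55.7% to 66.8%, and that share was 49.9% with median-of-ratios or quantile scaling, 48.5% with chromosome or regional medians removed and 45.2% with a minimum of 5 FPKM. With regional medians removed, PSPH was at -0.15 and TYMS at -0.062 (adjusted p = 0.649). With chromosome medians removed, the log2 ratio differences were -0.76 for SHMT2 to SHMT1 and -0.56 for MTHFD2 to MTHFD1, and with regional medians removed -0.61 and -0.34. Same-numbered libraries of the 2 groups deviated together with correlations of 0.0135, 0.135 and -0.0491, so numbers were not taken as pairs. With the replicate block 2984 genes were called higher and 2335 lower. In groups of equal size a block cannot change a mean difference, so both log2 ratio differences necessarily stayed at -0.99 and -0.95. At these low levels reads limit PHGDH, and the pseudocount sets the size for ALDH1L2 (1.13, 1.65 and 2.74 with 1, 0.5 and 0.1 FPKM added).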

Other observations

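Carriers of folate and glycine that fell below the filter on low values differed as well; they were picked after their values had been seen. The proton-coupled folate transporter gene SLC46A1 had 0.310 ± 0.097 FPKM in sgControl and 1.62 ± 0.06 FPKM in sgPLOD2 (SD, n = 3 each). The glycine transporter gene SLC6A9 had 1.28 ± 0.08 and 0.0207 ± 0.0064 FPKM. Neither overlapped between the groups, as was so for 38.8% of all genes above 0 in any library. Processed copies named after the members, whose reads could be confused with theirs, reached at most 0.274 FPKM (MTHFD2P7).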
